A study of Mus musculus with 6 samples.

Results

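The 9 genes described here encode the receptors, co-receptors and Dishevelled proteins through which endothelial cells (ECs) of the central nervous system (CNS) receive Wnt7 and Norrin. They are *Fzd4*, *Fzd6*, *Lrp5*, *Lrp6*, *Tspan12*, *Adgra2*, *Reck*, *Dvl1* and *Dvl2*, and were taken by gene symbol from a table of 56748 genes, in which each symbol had 1 row. RNA-Seq was performed on ECs sorted by flow cytometry from the spinal cords of P16 mice. The 3 control mice carried Tardbpflox, an allele of the gene for TDP-43 with *loxP* sites around an exon. The 3 knockout (KO) mice were Cdh5(PAC)-CreERT2;Tardbpflox, in which a tamoxifen-activated Cre driven by the *Cdh5* promoter deletes that exon in ECs. Both groups received tamoxifen (1 mg/mL) from P5 to P7, and each mouse gave 1 library.

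Wnt7a and Wnt7b reach CNS ECs from neural cells and Norrin comes mainly from glia, and both act through Frizzled-4 with LRP5 or LRP6 as co-receptor. Norrin signaling is strengthened by the tetraspanin TSPAN12, whereas Wnt7 needs the adhesion receptor ADGRA2 (GPR124) and its membrane-anchored partner RECK. The activated complex recruits Dishevelled, which leads to stabilization of β-catenin, and this pathway is known for driving vessel growth into the CNS and for forming and keeping the blood-CNS barrier.

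The libraries held 25704871 to 47270654 estimated counts, and 3 counts corresponded to 0.0635 to 0.117 CPM, the count scaled to a common library total. *Tardbp* was at 55.2, 61.8 and 58.3 scaled CPM in control mice 1, 2 and 3 and at 26.6, 16.1 and 11.7 in KO mice 1, 2 and 3, so every KO library lay below every control library, with exons outside the deleted one counted too. The 10 EC markers summed to 11466 to 15152 CPM in control mice and 11315 to 13797 CPM in KO mice, with all 10 detected. The groups did not overlap in the sums of 4 lists for other cell types, and in 2 of these 1 gene decided this. Summed erythroid markers (7 of 7 genes detected) ranged from 6336 to 9761 CPM in control and from 2197 to 2911 CPM in KO mice. Neuron markers (7 of 8 detected, *Tubb3* at 0) ranged from 7.95 to 17.1 and from 1.95 to 3.76 CPM. Within this list *Rbfox3* went the other way, at 0.0454, 0 and 0 CPM in control and 0.933, 0.567 and 1.95 CPM in KO mice. *Map2* had counts in control mouse 2 alone and *Syt1* in KO mouse 2 alone. The erythroid and neuron sums stayed separate without their highest gene. Astrocyte markers (7 of 7) ranged from 218 to 259 and from 139 to 195 CPM. Without *Gja1* they ranged from 23.1 to 27.4 and from 0.506 to 28.0 CPM. *Aqp4* was at 0 in all KO libraries and in control mouse 2, whereas *Gfap* was highest in KO mouse 1, at 25.2 CPM. Fibroblast markers (6 of 6) ranged from 50.5 to 61.2 and from 62.7 to 109 CPM. Without *Col3a1* they ranged from 35.4 to 40.8 and from 12.8 to 43.9 CPM. *Lum* and *Pdgfra* were at 0 in all KO libraries and in control mouse 2. *Col1a1* was at 6.72, 0 and 4.15 CPM in control and 12.1, 16.4 and 2.22 CPM in KO mice. Mural cell markers (9 of 9) ranged from 507 to 897 and from 430.3 to 1082 CPM, oligodendrocyte markers (7 of 7) from 368 to 617 and from 31.0 to 607 CPM, and microglia and macrophage markers (8 of 9, *Adgre1* at 0) from 0 to 4.86 and from 3.01 to 8.44 CPM. The part of these cells in the results that follow was not tested. By multidimensional scaling, control mouse 2 stood apart on the first dimension (31.0% of the variance) and KO mouse 1 on the second (23.4%). Values without these libraries are therefore given for the 9 genes where they change a result.

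TDP-43 is an RNA-binding protein that prefers UG-rich RNA. Uninterrupted TG repeats of at least 12 bases were therefore located in the gene bodies in GRCm39 on the sense strand, which has the sequence of the RNA. Such a repeat was present in 7 of the 9 genes and absent from *Fzd4* and *Dvl1*. Among the 13060 tested genes found in the annotation, 66.8% held one on this strand and 59.3% on the opposite strand. Among the 8575 of these whose span was within the range of the 9 genes, 81.97% held one on the sense strand. *Lrp5* held 21 repeats in 101823 bp, *Tspan12* 14 in 81231 bp, *Lrp6* 7 in 120774 bp, *Fzd6* 5 in 32342 bp, *Reck* 5 in 69293 bp, *Adgra2* 2 in 37951 bp and *Dvl2* 2 in 11757 bp. Per 100 kb these were 20.6, 17.2, 5.80, 15.5, 7.22, 5.27 and 17.0 in the same order, beside 10.9 over the 13060 genes. The longest repeats of the 3 genes with the lowest unadjusted p in the comparison of the genotypes follow with 20 bases on either side, 5′ to 3′ along the transcript, with the repeat in capitals. All 3 are intronic, and a match is not evidence of binding.
*Adgra2* (chr8:27584541-27584624, plus strand, repeat of 44 bases): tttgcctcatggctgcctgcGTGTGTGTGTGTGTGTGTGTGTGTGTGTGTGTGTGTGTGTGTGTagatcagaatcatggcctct
*Tspan12* (chr6:21831793-21831870, minus strand, repeat of 38 bases): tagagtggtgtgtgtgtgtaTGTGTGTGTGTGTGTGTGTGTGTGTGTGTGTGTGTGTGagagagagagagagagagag
*Fzd6* (chr15:38885345-38885406, plus strand, repeat of 22 bases): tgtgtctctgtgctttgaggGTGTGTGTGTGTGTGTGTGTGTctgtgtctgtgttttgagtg

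All 9 genes were detected in every library, from 29 counts of *Dvl2* to 13085 counts of *Fzd4*, and all 9 passed the filter on low counts. Levels were compared between genes as CPM per kb of annotated exonic sequence, averaged over the 6 libraries. *Fzd4* was highest at 33.2 ± 5.98 (SD, n = 6 mice) and *Fzd6* followed at 25.2 ± 5.89, which placed both above at least 90.0% of the tested genes. *Tspan12* was at 17.6 ± 6.86, *Adgra2* at 7.501 ± 2.55 and *Reck* at 3.97 ± 2.71 CPM per kb. The co-receptors were lower, with *Lrp6* at 2.28 ± 0.828 and *Lrp5* at 1.601 ± 1.20, as were *Dvl1* at 1.79 ± 0.786 and *Dvl2* at 0.457 ± 0.403 CPM per kb. These means and SDs pool both genotypes. *Adgra2* was at 9.66 in control and 5.34 CPM per kb in KO mice, and *Dvl2* at 0.190 and 0.723. The ranges of every pair of neighbours in this order overlapped over the 6 libraries. Within libraries the order was clearer at some steps, since *Fzd6* exceeded *Tspan12*, *Tspan12* exceeded *Adgra2* and *Lrp5* exceeded *Dvl2* in 6 of 6 libraries. *Fzd4* exceeded *Fzd6* in 4 of 6, and this step of the order turned with the gene length used, because *Fzd6* was at 38.9 and *Fzd4* at 33.3 CPM per kb when the longest transcript served as the length. With the median transcript length, *Lrp6* at 10.4 CPM per kb also came above *Reck* at 6.91, and *Adgra2* was at 25.9. *Dvl1* and *Lrp5*, with 3 of 6 libraries either way, could not be ordered.

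*Fzd4* and *Fzd6* accounted for most of the Frizzled RNA. Of the summed CPM per kb of the 10 Frizzled genes, *Fzd4* took 54.99% ± 7.25 and *Fzd6* 41.6% ± 6.14 (SD, n = 6 mice). With the longest transcript as the length *Fzd6* had the larger share, at 52.01% against 45.1%, and with the median length it had 53.7% against 41.8%. *Fzd1* took 1.74% ± 2.17 and *Fzd3* 1.09% ± 0.543, *Fzd9* and *Fzd10* had 0 counts in every library, and the other Frizzled genes each took less than *Fzd3*. The order of *Fzd1* and *Fzd3* differed between the genotypes. They took 3.42% and 0.766% in control mice and 0.0564% and 1.42% in KO mice. Among the adhesion receptors of its family, *Adgra2* took 81.2% ± 12.8, *Adgra3* 17.4% ± 12.6 and *Adgra1* 1.44% ± 1.72. Of the Dishevelled RNA, *Dvl1* took 44.2% ± 12.6, *Dvl3* 44.2% ± 11.5 and *Dvl2* 11.6% ± 8.38. *Dvl1* was at 51.4% and *Dvl3* at 42.3% in control mice, and at 37.03% and 46.1% in KO mice. With the longest transcript as the length, *Dvl3* took 53.9% and *Dvl1* 36.9% over the 6 libraries. *Lrp6* exceeded *Lrp5*, at 61.5% and 38.5% with an SD of 13.5 percentage points, in all libraries except that of control mouse 1, where *Lrp5* took 63.6%.

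**Figure D1:**
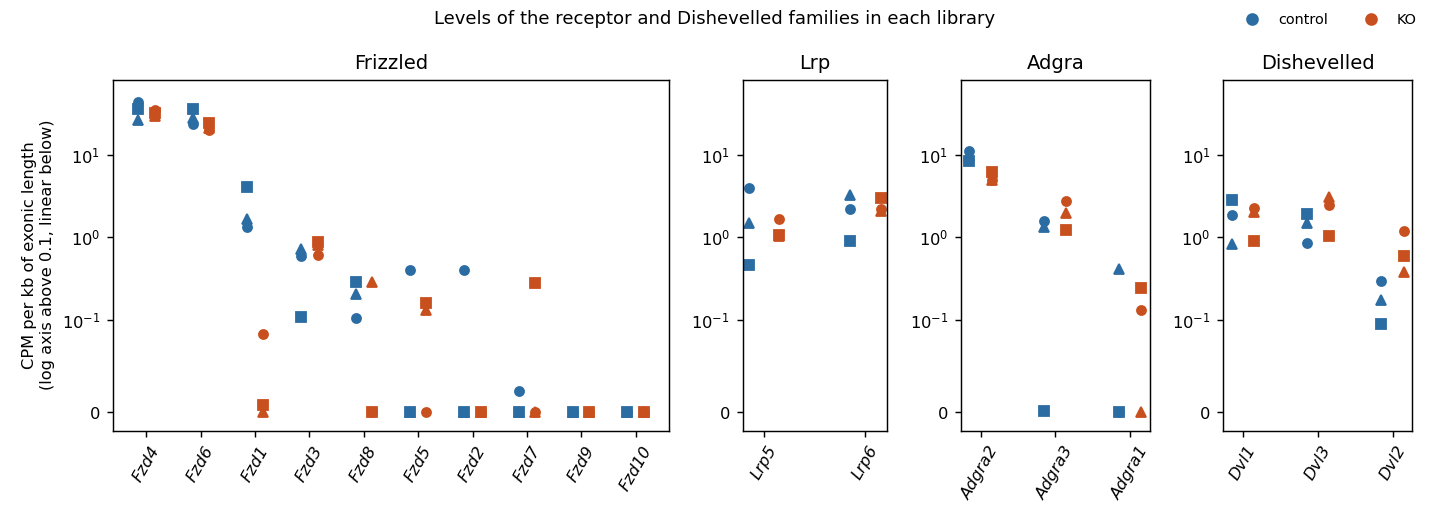
Levels of the Frizzled, Lrp, Adgra and Dishevelled families as CPM per kb of exonic length (log axis above 0.1, linear below) in each of the 3 control (blue) and 3 KO (orange) libraries, with mouse 1 as circles, 2 as squares and 3 as triangles. *Fzd4* and *Fzd6* lay above the other Frizzled genes in all 6 libraries, and *Fzd1* was near 0 in the KO libraries.

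The comparison of KO with control mice asked whether loss of endothelial TDP-43 goes with a different amount of RNA for these signaling components. Values below are CPM scaled to library composition (TMM), and fold changes are those of KO over control in limma. None of the 9 genes had a Benjamini-Hochberg adjusted p under 0.05 in limma (count of 0, lowest adjusted p = 0.338), where 18 of the 13107 genes tested, or 0.137%, did (0.0305% higher and 0.107% lower in KO). The count was also 0 in edgeR, which called 0.0% of all tested genes, and in DESeq2, which called 1.88%. *Tardbp*, the deleted gene, did not pass in limma either (log2 fold change -1.62, adjusted p = 0.287). It did not pass in edgeR (adjusted p = 0.373) and passed in DESeq2 (adjusted p = 0.0221). A count of 0 is therefore not evidence that the 9 genes were unchanged. Without adjustment, 3 of the 9 had a p under 0.05 in limma, *Adgra2*, *Tspan12* and *Fzd6*, all lower in KO mice, where 9.27% of all tested genes passed in either direction, 5.0% as lower and 4.26% as higher. The groups did not overlap for 3 of the 9, *Adgra2* and *Fzd6* as lower and *Dvl2* as higher, beside 15.3% of all tested genes (7.93% lower, 7.4% higher). The median log2 fold change was -0.27 over the 9 genes and -0.02 over all tested genes. In RNA from whole sorted samples, fewer cells of a type and less RNA per cell cannot be told apart.

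*Adgra2* (ENSMUSG00000031486.16; GRCm39 chr8:27575514-27613464, plus strand, 19 exons in the canonical transcript), the Wnt7 co-activator, showed the clearest separation. It was at 77.9, 63.3 and 70.9 CPM in control mice 1, 2 and 3 and at 31.6, 38.4 and 33.2 CPM in KO mice 1, 2 and 3. The highest KO library was thus well below the lowest control library, and the libraries of each group lay close together. The means were 70.7 ± 7.28 and 34.4 ± 3.56 CPM (SD, n = 3 mice each), and the KO mean was 48.7% of the control mean. The log2 fold change was -1.05 (standard error 0.29, 95% interval -1.71 to -0.39, unadjusted p = 0.00567, adjusted p = 0.338 from limma). The spread of *Adgra2* within groups, an SD of 0.15 on the log2 scale, was small. Among tested genes of all levels, 1.57% had a smaller one and the median was 0.81. Leaving out 1 mouse at a time gave log2 fold changes from -1.14 to -0.97, and the value was -1.05 without control mouse 2 and KO mouse 1 together. Over all 17 fits the unadjusted p was under 0.05, and the lowest adjusted p, 0.0536, came from DESeq2. *Brf2*, transcribed from the other strand, shares 3.83% of the exonic bases of *Adgra2*.

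*Reck* (ENSMUSG00000028476.14; chr4:43875514-43944806, plus strand), whose product binds Wnt7 and acts with ADGRA2, differed widely between mice of a group. It was at 12.8, 72.5 and 20.2 CPM in the control mice and at 16.5, 41.9 and 23.2 CPM in the KO mice. Control mouse 2 was the highest, and all KO values lay inside the control range. The log2 fold change was -0.14 (standard error 0.69, 95% interval -1.70 to 1.41, limma adjusted p = 0.963), an interval that leaves room for changes in either direction. The sign rested on control mouse 2, since without it the log2 fold change was 0.56 (limma adjusted p = 0.780), and without KO mouse 1 it was 0.28. Without both mice it was 0.98, and the KO libraries lay above the control libraries. The ratio of *Adgra2* to *Reck* counts within a library, which no scaling between libraries enters, was 6.08, 0.873 and 3.51 in control mice and 1.92, 0.917 and 1.44 in KO mice. The ratios of the groups overlapped (log2 difference -0.96, 2-sided exact permutation test, p = 0.4, adjusted over 4 ratios p = 0.6; the smallest possible p is 0.1). The difference was -0.36 without control mouse 1 and -1.76 without control mouse 2.

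*Tspan12* (ENSMUSG00000029669.15; chr6:21771389-21852619, minus strand), the Norrin co-activator, was at 99.4, 125 and 73.6 CPM in control mice and at 39.7, 77.5 and 42.3 CPM in KO mice. KO mouse 2 lay just above control mouse 3, and the other KO libraries were below all controls. The means were 99.5 ± 25.9 and 53.2 ± 21.1 CPM (SD, n = 3 mice each), with a log2 fold change of -0.97 (standard error 0.35, 95% interval -1.76 to -0.18, unadjusted p = 0.0219, adjusted p = 0.471 from limma). It kept its sign in 17 of 17 fits, and its unadjusted p was under 0.05 in 10 of them. With scaling to EC markers its groups did not overlap. Without control mouse 2 the log2 fold change was -0.79 (unadjusted p = 0.0557 in limma). Without KO mouse 1 it was -0.73 (unadjusted p = 0.113 in limma), and without both it was -0.56 (unadjusted p = 0.183 in limma). *Gm30270*, on the opposite strand of 8.28% of its exonic sequence, had at most 10 counts in any library.

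**Figure D2:**
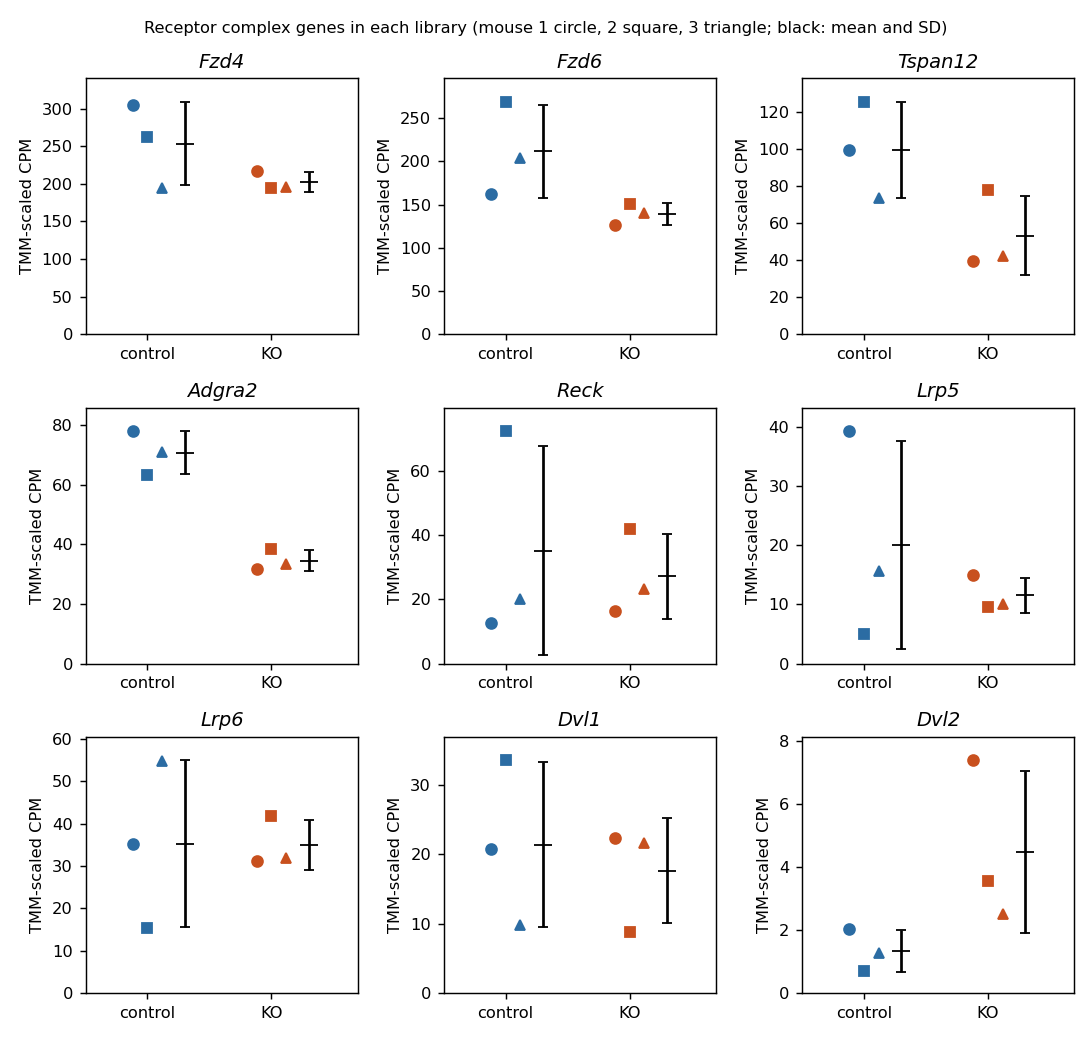
TMM-scaled CPM of the 9 genes in each library (control blue, KO orange; mouse 1 circle, 2 square, 3 triangle), with the group mean and SD (n = 3 mice) in black. The groups were separate for *Adgra2* (63.3 to 77.9 against 31.6 to 38.4 CPM), *Fzd6* and *Dvl2*, and overlapped for the other 6 genes.

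*Fzd4* (ENSMUSG00000049791.5; chr7:89053563-89062342, plus strand, 2 exons), the receptor shared by Norrin and Wnt7, was at 304, 262 and 194 CPM in control mice and at 217, 194 and 196 CPM in KO mice. The KO libraries lay within a narrow range at the level of control mouse 3, and the other controls were higher. The means were 253 ± 55.7 and 202 ± 12.7 CPM (SD, n = 3 mice each), which gave a log2 fold change of -0.29 (standard error 0.21, 95% interval -0.77 to 0.20, limma adjusted p = 0.672). This interval, the narrowest of the 9, corresponds to 0.585 to 1.15 times the control level. Without control mouse 3 the groups did not overlap, and the log2 fold change of *Fzd4* was -0.48 (unadjusted p = 0.0489, adjusted p = 0.606 from limma). This was the 1 fit of 17 with an unadjusted p under 0.05. The value was -0.15 without control mouse 1 (unadjusted p = 0.544 in limma). It was -0.10 with library size scaling and -0.07 with scaling to EC markers (unadjusted p = 0.669 and 0.773 in limma).

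*Fzd6* (ENSMUSG00000022297.16; chr15:38869243-38901584, plus strand), a Frizzled best known from planar cell polarity, was at 162, 269 and 204 CPM in control mice and at 126, 151 and 141 CPM in KO mice. Every KO library lay below every control library, though KO mouse 2 and control mouse 1 were close. The means were 212 ± 53.9 and 139 ± 12.4 CPM (SD, n = 3 mice each), with a log2 fold change of -0.59 (standard error 0.24, 95% interval -1.14 to -0.05, unadjusted p = 0.0365, adjusted p = 0.513 from limma). The unadjusted p was under 0.05 in 6 of 17 fits. Without control mouse 2, the highest library, the log2 fold change was -0.41 (unadjusted p = 0.105 in limma). It was -0.51 without KO mouse 1 and -0.32 without both (unadjusted p = 0.125 and 0.255 in limma). Scaling by library size alone or to EC markers brought the groups into overlap. *Gm33123* and *Gm26704* overlap 8.41% and 4.93% of its exonic sequence on the opposite strand.

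Counts of *Fzd4* relative to *Fzd6* within a library were 1.88, 0.975 and 0.951 in control mice and 1.72, 1.29 and 1.39 in KO mice. The KO ratios lay inside the control range (log2 difference 0.28, 2-sided exact permutation test, p = 0.5, adjusted over 4 ratios p = 0.6). The difference was 0.60 without control mouse 1, 0.13 without control mouse 2, 0.11 without control mouse 3 and 0.16 without KO mouse 1.

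*Lrp5* (ENSMUSG00000024913.17; chr19:3634821-3736643, minus strand), the co-receptor used by Norrin signaling in retinal vessels, varied most between control mice. It was at 39.3, 4.94 and 15.6 CPM in control mice and at 15.0, 9.61 and 10.1 CPM in KO mice. All KO values fell inside the control range, which spanned 7.96-fold. The log2 fold change was -0.27 (standard error 0.86, 95% interval -2.21 to 1.67, limma adjusted p = 0.938), and without control mouse 1 it was 0.43 (limma adjusted p = 0.916). Without control mouse 2, the lowest library, the groups did not overlap and the value was -1.06 (limma adjusted p = 0.610). They did not overlap either without control mouse 2 and KO mouse 1 together, where it was -1.33.

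*Lrp6* (ENSMUSG00000030201.16; chr6:134423439-134544212, minus strand), the co-receptor closest to it in sequence, was at 35.3, 15.4 and 54.9 CPM in control mice and at 31.1, 41.7 and 31.9 CPM in KO mice. The group means were near-equal, at 35.2 ± 19.7 and 34.9 ± 5.89 CPM (SD, n = 3 mice each). The log2 fold change was 0.13 (standard error 0.49, 95% interval -0.99 to 1.24, limma adjusted p = 0.954), and it was negative without control mouse 2 (-0.37). The *Lrp5* to *Lrp6* count ratio was 1.11, 0.320 and 0.285 in control mice and 0.482, 0.231 and 0.317 in KO mice. Apart from the library of control mouse 1, the ratios of both groups covered similar values (log2 difference -0.51, 2-sided exact permutation test, p = 0.6, adjusted over 4 ratios p = 0.6). The difference was 0.12 without control mouse 1 and between -0.86 and -0.26 without any other single mouse.

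*Dvl1* (ENSMUSG00000029071.17; chr4:155931797-155949171, plus strand), a cytoplasmic scaffold recruited by Frizzled, was at 20.8, 33.5 and 9.77 CPM in control mice and at 22.4, 8.84 and 21.7 CPM in KO mice. KO mouse 2 was just below the lowest control library, and the other KO libraries lay inside the control range. In limma the log2 fold change was -0.15 with a standard error of 0.63 (95% interval -1.58 to 1.28, adjusted p = 0.957). Without control mouse 2 it was 0.23, and without both control mouse 2 and KO mouse 1 it was -0.09. *Tas1r3*, transcribed from the other strand, shares 32.5% of the exonic bases of *Dvl1* but had counts in a single library (190 in control mouse 3).

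*Dvl2* (ENSMUSG00000020888.17; chr11:69891371-69903127, plus strand), its paralog, had low counts and higher values in the KO mice. It was at 2.02, 0.699 and 1.28 CPM in control mice, from 87, 29 and 56 counts, and at 7.39, 3.56 and 2.50 CPM in KO mice, from 360, 111 and 65 counts. Every KO library lay above every control library, and KO mouse 1 was the highest. The log2 fold change was 1.89 with a standard error of 1.44 (95% interval -1.39 to 5.16, limma adjusted p = 0.677), and without both control mouse 2 and KO mouse 1 it was 0.91. In 1 of 17 fits, with at least 10 counts in every library, the unadjusted p was under 0.05. There the log2 fold change was 1.74 (unadjusted p = 0.0468, adjusted p = 0.437 from limma). *Acadvl*, which encodes an enzyme of fatty acid oxidation, overlaps 22.6% of the exonic sequence of *Dvl2* on the opposite strand and had 2465 to 6974 counts against the 29 to 360 of *Dvl2*. *Acadvl* itself had a log2 fold change in limma of 0.11 (adjusted p = 0.924), and its part in the counts of *Dvl2* was not tested. The *Dvl1* to *Dvl2* count ratio was 10.2, 47.2 and 7.57 in control mice and 3.02, 2.48 and 8.60 in KO mice, with overlap at KO mouse 3 (log2 difference -1.94, 2-sided exact permutation test, p = 0.2, adjusted over 4 ratios p = 0.6). The difference was -1.13 without control mouse 2 and -2.49 without KO mouse 3.

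**Figure D3:**
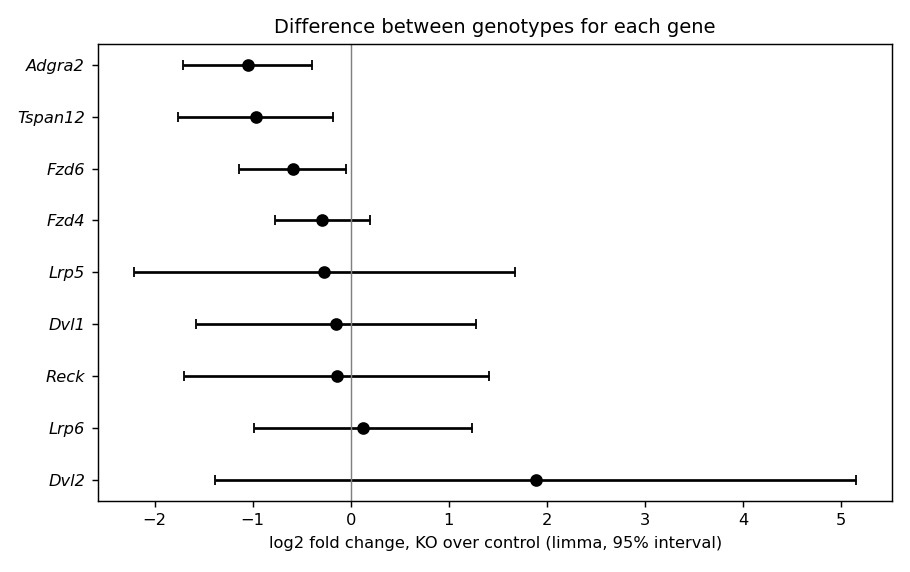
Log2 fold changes of KO over control mice with 95% intervals from limma (x axis) for the 9 genes (y axis), with a grey line at 0. The intervals of *Adgra2* (-1.71 to -0.39), *Tspan12* and *Fzd6* lay below 0 before adjustment for the 13107 genes tested, and that of *Dvl2* was the widest.

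The 9 genes differed in how steady they were between mice of a genotype. The SD within groups on the log2 scale was 0.15 for *Adgra2*, 0.24 for *Fzd4*, 0.27 for *Fzd6* and 0.47 for *Tspan12*, below the median of 0.81 over all tested genes. It was 0.68 for *Lrp6* and 0.78 for *Dvl2*, also below this median, and 0.83 for *Dvl1*, 1.04 for *Reck* and 1.09 for *Lrp5*. *Adgra2*, *Fzd4*, *Fzd6* and *Tspan12* were thus the steadiest of the 9, and *Lrp5* and *Reck* the least steady. The steadiest genes also had the highest CPM per kb of the 9, and the part of level in this spread was not tested.

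Across the 6 libraries, which mix both genotypes, *Tspan12* ran closest to *Adgra2* (Pearson r = 0.81) and to *Fzd6* (r = 0.80) among the 9 genes. *Fzd6* and *Dvl2* ran most opposite (r = -0.94). Among 7444 genes that had 100 counts or more in each library, those most like *Fzd4* were *Smarcb1* (r = 0.99), *Lrrc28* (r = 0.97) and *Ushbp1* (r = 0.97). The gene most like *Adgra2* was *Ttyh2* (r = 0.99), a gene of the tweety ion channel family, and the gene most like *Tspan12* was *Jagn1* (r = 1.00). For *Fzd6* it was *Camk2n1*, for *Lrp5* *Arl6ip5*, for *Lrp6* *Ube2q1*, for *Reck* *F5*, for *Dvl1* *Cast* and for *Dvl2* *Timm10*, with r from 0.98 to 1.00. These correlations over 6 libraries share depth and genotype and serve as descriptions.

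Of 103 other genes of the pathway, 58 passed the filter and 32 had 0 counts in every library. In limma 0 of the 58 had an adjusted p under 0.05, 1 was higher and 5 were lower at an unadjusted p under 0.05, and 3 higher and 5 lower had groups that did not overlap. Their median log2 fold change was -0.10. Over all tested genes, 4.26% were higher and 5.0% lower at an unadjusted p under 0.05 in limma. Groups did not overlap for 15.3% of all tested genes (7.4% higher, 7.93% lower), and the median was -0.02. DESeq2 called 2, *Fzd1* and *Apcdd1*, and edgeR called 0.

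The ligands of this receptor complex were nearly absent from the sorted cells. *Wnt7a* and *Ndp*, the Norrin gene, had 0 counts in every library, which allows up to 0.117 CPM in the smallest library, and *Wnt7b* had 36 counts in control mouse 3 alone. Of the 26 genes for ligands, Wnt secretion and R-spondins, 5 were tested and 18 were at 0. *Wls*, whose product carries Wnt proteins to the cell surface, was at 198, 180 and 222 CPM in control and 76.1, 151 and 121 CPM in KO mice, without overlap (log2 fold change -0.90, standard error 0.27, limma adjusted p = 0.361). *Wnt5a*, a ligand that acts largely without β-catenin, was at 17.5, 18.0 and 14.8 CPM in control and 36.0, 38.6 and 23.9 CPM in KO mice, which in limma gave a log2 fold change of 0.99 with a standard error of 0.40 (adjusted p = 0.513). All KO libraries were above all control libraries for *Wnt5a*.

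Of the 11 paralogs of the receptor and Dishevelled genes, 7 were tested. *Fzd1* was at 5.67, 18.7 and 7.55 CPM in control mice and at 0.328, 0.0320 and 0 in KO mice, from 16, 1 and 0 counts. Its groups did not overlap, and the limma adjusted p was 0.360. *Dvl3* was at 8.93, 20.9 and 16.3 CPM in control and 22.9, 9.42 and 30.6 CPM in KO mice with overlap of the groups. *Adgra3*, at 21.4, 0.0241 and 19.0 CPM in control and 33.4, 14.5 and 25.4 CPM in KO mice, was near 0 in control mouse 2 alone. As a share of the summed CPM per kb of the *Adgra* family, *Adgra2* was at 90.6% ± 8.29 in control and 71.8% ± 8.76 in KO mice (SD, n = 3 mice each), or at 83.5% and 55.7% with the longest transcript as the length. Among the 5 other Wnt receptors, 4 were tested, and the lowest adjusted p was 0.710.

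Of the 5 genes for receptor turnover, 2 were tested. *Znrf3*, a ubiquitin ligase that removes Frizzled from the membrane, was at 30.7, 55.7 and 41.1 CPM in control and 40.3, 22.4 and 21.0 CPM in KO mice, with overlap. Of the 18 extracellular and membrane inhibitors, 5 were tested and 1, *Apcdd1*, was lower at an unadjusted p under 0.05, beside 5.0% of all tested genes. *Apcdd1* had a limma log2 fold change of -0.94 (adjusted p = 0.0523), and of the genes of all these lists it had the lowest adjusted p. *Notum*, a secreted enzyme that inactivates Wnt, had overlapping groups, at 50.8, 50.7 and 29.8 CPM in control and 25.3, 15.3 and 31.9 CPM in KO mice.

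Of the 10 genes of the β-catenin destruction complex, 9 were tested, with a median log2 fold change of 0.40 and none with an unadjusted p under 0.05 in limma. *Gsk3b*, the kinase that marks β-catenin for degradation, was at 90.7, 24.0 and 90.4 CPM in control and 128, 102 and 109 CPM in KO mice, without overlap (log2 fold change 0.96, standard error 0.46, limma adjusted p = 0.558). Control mouse 2 was the lowest control library for all 9 tested genes of this list. *Btrc* had 0 counts there, against 1682 in control mouse 1 and 402 in control mouse 3. How far this library set the median was not tested. Of the 13 genes for β-catenin and its nuclear partners, all were tested, with a median of -0.45 and 9 below 0. Over all tested genes the median was -0.02 and 50.7% were below 0. None of the 13 had an unadjusted p under 0.05 in limma. *Ctnnb1*, the β-catenin gene, was at 699, 844 and 715 CPM in control and 741, 660 and 629 CPM in KO mice. Its groups overlapped, and its log2 fold change was -0.14 (standard error 0.14, limma adjusted p = 0.764). *Lef1* was at 154, 74.7 and 85.1 CPM in control and 55.3, 92.2 and 84.8 CPM in KO mice, and *Tcf7* at 69.9, 82.1 and 89.4 and at 65.1, 35.1 and 77.7 CPM. These genes encode transcription factors that β-catenin binds, and both had overlapping groups.

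Of the 15 Dishevelled regulators, 13 were tested and 2, *Prickle1* and *Nkd2*, were lower at an unadjusted p under 0.05, beside 5.0% of all tested genes. *Prickle1*, a planar polarity gene, was at 112, 206 and 80.3 CPM in control and 75.1, 45.9 and 56.0 CPM in KO mice (log2 fold change -1.03, standard error 0.42, limma adjusted p = 0.511). *Nkd2*, which encodes a Dishevelled-binding inhibitor, was at 15.2, 7.33 and 15.6 and at 0.0616, 7.11 and 0.693 CPM, where KO mouse 2 nearly reached control mouse 2. Its paralog *Nkd1* was at 186, 153 and 133 CPM in control and 154, 173 and 148 CPM in KO mice, with a log2 fold change of 0.02 (95% interval -0.45 to 0.49, limma adjusted p = 0.985).

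**Figure D4:**
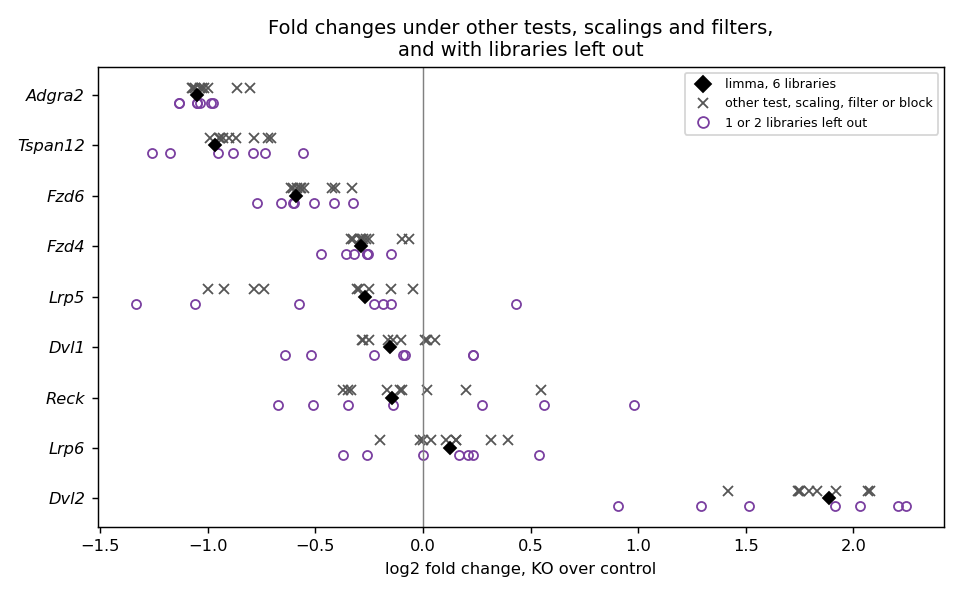
Log2 fold change of KO over control mice (x axis) for each of the 9 genes (y axis) in limma with all 6 libraries (diamonds), under other tests, scalings, filters or the block (crosses) and with 1 or 2 libraries left out (circles). *Adgra2* stayed between -1.14 and -0.81, whereas *Lrp5*, *Dvl1*, *Reck* and *Lrp6* crossed 0.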

How the data were processed

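Estimated counts per gene were deposited for 6 libraries. The authors prepared them with SMARTseq2 from poly(A)-primed, PCR-amplified cDNA of little RNA, mapped the reads to GRCm39 with STAR 2.7.8a, estimated gene counts with RSEM 1.3.0 on GENCODE M30 and deposited them as whole numbers without normalization. Molecular identifiers are not described, so the floors of 3 counts cover counting error only, whereas the 95% intervals come from the spread between mice in limma. Strand is not described as used, so antisense reads cannot be told apart. Totals were 25704871 to 47270654 counts.

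Groups came from the labels. Differences were fitted over all genes with limma 3.58.1 (voom) in R 4.3.3 after TMM scaling and the filterByExpr filter of edgeR 4.0.16, with Benjamini-Hochberg adjustment and a threshold of 0.05. Scaled CPM are counts relative to the TMM-scaled library total. Count ratios within libraries (0.5 added) and marker sums were compared by exact permutation tests with SciPy 1.17.1, and the marker sums, adjusted over the 8 lists, gave no p under 0.2. Alternatives were edgeR's quasi-likelihood test, DESeq2 1.42.0, other scalings and filters, sample weights, the replicate number as a block, and leaving out libraries. Positions, exonic lengths and TG repeats came from GENCODE M39 and GRCm39 (98.7% of gene identifiers matched). The procedures were tested on simulated data.

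Named were the 9 genes, *Tardbp*, and from each pathway list genes with the highest levels or lowest p. The genes and lists were chosen with earlier results of these data known. Labels do not say whether the mice share litters.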

Additional observations from a re-analysis of the deposited data

How the results depend on the processing

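The number of the 9 genes past the threshold was 0 under all 17 alternatives, while the number of all tested genes past it, 18, moved to 0 in edgeR (848 genes at an unadjusted p under 0.05), 247 in DESeq2, 10 with library size scaling, 1 with scaling to 5 EC markers, 76 without a filter, 39 with at least 10 counts in every library and 31 at an adjusted p under 0.1. It ranged from 0 to 13 with each mouse left out (0 without KO mouse 1, 2 without KO mouse 3, 3 without control mouse 1 or KO mouse 2, 10 without control mouse 2) and was 0 without control mouse 2 and KO mouse 1 (1026 genes at an unadjusted p under 0.05), an alternative chosen after seeing the data. Of the 58 other pathway genes, 2 were called by DESeq2 and 1, *Apcdd1*, without a filter, with at least 10 counts or at an adjusted p under 0.1. The number of the 9 genes without overlap was 3 to 5 with a mouse left out, when 22.9% to 28.0% of all tested genes did not overlap. It was 5 without control mouse 3 (22.9%) and 5 without control mouse 2 and KO mouse 1 (38.3%). With library size scaling it was 2 (15.6%). With EC marker scaling it was 3 (14.9%), with *Tspan12* separate instead of *Fzd6*. *Adgra2*, *Tspan12*, *Fzd6*, *Fzd4* and *Dvl2* kept their direction in all fits.

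Log2 fold changes near 0 changed sign. *Lrp6* was -0.013 in edgeR, -0.20 with sample weights, -0.00011 with the replicate block and -0.26 without control mouse 2 and KO mouse 1, and ranged from -0.37 to 0.54 with a mouse left out. *Reck* was 0.55 with sample weights, 0.018 with library size scaling, 0.20 with EC marker scaling and 0.98 without those mice together (range -0.68 to 0.56 with 1 left out), and *Dvl1* was 0.0077, 0.055 and 0.018 in the first 3 of these (range -0.64 to 0.23). *Lrp5* ranged from -1.06 to 0.43 and was -1.33 without both mice, its log2 ratio to *Lrp6* from -0.86 to 0.12, summed EC markers from -0.13 to 0.091 (-0.23 in TMM-scaled CPM) and mural markers from -0.44 to 0.34 (-0.15 in TMM-scaled CPM), and fibroblast markers were at -0.18 without *Col3a1*, against 0.66 with it. Leaving out a list's highest gene and changing the length behind family shares were also chosen after seeing the data. The cause was not tested. Scaling by library size or EC markers moved the median of all genes to 0.18 and 0.23, and relative to it *Adgra2* was at -1.04 and -1.03.

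With the replicate block, 22 genes passed in limma and none of the 9. Same-numbered mice did not deviate together (r from -0.13 to -0.03), and 0 of 6 libraries correlated best with their own number. Low counts limit *Dvl2* and *Fzd1*, and 3 mice a group limit the rest.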
